A study of Mus musculus with 9 samples.

Results

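The genes described here are 40 that carry out DNA replication or drive entry into S phase, taken by gene symbol from the array's annotation, of 18193 genes with a probe set that names 1 gene. Each is read by its brightest probe set, the one with the highest mean log2 intensity over the 9 arrays. Expression was measured on Affymetrix arrays in cultured lung cells that the labels call type II cells, the alveolar epithelial cells that make surfactant and divide to renew the alveolus. The cells came from female ICR10 mice aged 2 months and made up 3 groups of 3 arrays. The wild-type group carried normal Nrf2 (Nrf2+/+), the knockout group lacked it (Nrf2-/-), and the third group was Nrf2-/- cells supplemented with GSH, which usually stands for glutathione, an antioxidant tripeptide. Nrf2, encoded by Nfe2l2, is a transcription factor that switches on antioxidant genes. All cells were grown for 5 days with keratinocyte growth factor, a mitogen for lung epithelium, after Dispase digestion for 45 min, removal of macrophages on IgG-coated plates for 1 h and removal of fibroblasts by adherence for 2 h. By its title the series set wild-type against Nrf2-deficient cells. Why, how much and for how long GSH was given is not stated in the sources used here. The titles call the arrays of the GSH group treated, while the treatment field of the labels reads no treatment for every array. The labels describe each array as 1 tissue, and p-values here measure only the spread between these arrays.

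Several facts about the arrays bear on every comparison below. The titles carry a number that puts 2 arrays of each group in one set, called set 2, and 1 array in another, called set 3, and no source says what it stands for. Nfe2l2 read 3980 ± 167 (SD, n = 3) in wild type, 59.9 ± 27.1 in the knockout and 41.6 ± 7.20 with GSH, in the direction of the labels. The wild-type arrays went against the label of sex: Xist, which is made from the inactive X, read 157 ± 28.2 there and 3203 ± 1250 in the knockout, and the Y-linked Eif2s3y read 801 ± 121 in wild type and 9.27 ± 13.1 in the knockout. Genotype and this difference cannot be told apart in the comparisons with wild type. The summed intensity of 13 type II markers was 32582 to 41207 in wild type, 38567 to 58666 in the knockout and 45099 to 62810 with GSH, and none of the 13 was at or below the level of bacterial control probe sets on all 9 arrays. Of these, Sftpc, which encodes surfactant protein C, did not exceed that level on any of the 3 wild-type arrays, at 37.3 ± 10.3, and read 89.1 ± 48.7 in the knockout and 108 ± 30.3 with GSH. That of 12 general epithelial markers was 53756 to 54452 in wild type, 15774 to 16750 in the knockout and 74050 to 80546 with GSH. That of 23 macrophage markers was 65537 to 66828, then 118357 to 135385, then 156290 to 183044, and that of 21 fibroblast and mesenchymal markers was 158775 to 170073, then 182830 to 237119, then 100426 to 114472. The list drawn up for type II cells named Lyz1, Lyz2 and Cd74, which are not confined to those cells. Bright genes weigh most in such sums on the linear scale, so the sums do not give the share of type II cells. In whole cultures, fewer cells of a type and less RNA per cell cannot be told apart.

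Chromosomal replication starts with licensing, in which the origin recognition complex, CDC6 and CDT1 load the ring-shaped MCM helicase onto DNA during G1. CDC45 and the GINS complex then join the MCM ring, helped by CDC7 kinase and MCM10, and the helicase unwinds DNA as cells enter S phase. RPA coats the single strands, DNA polymerase alpha with primase lays down primers, RFC loads the sliding clamp PCNA, and polymerases delta and epsilon copy the strands. E2F transcription factors, acting downstream of cyclin E and the retinoblastoma protein, are known to drive many of these genes.

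RefSeq promoter windows (GRCm38.p6, from 250 bases before the annotated start to 50 bases after it) were matched for 32 of the 40 genes. Words of the E2F type were searched on both strands: TTTGGCGC, TTTGCCGC, TTTCGCGC, TTTCCCGC, TTTGGCGG and TTTCCCGG, which can overlap each other. At least 1 stood in the windows of 14 of the 32 genes (43.8%), against 4.55% of 27025 genes with a window. The CHR word TTTGAA, known from promoters of late cell cycle genes, stood in 5 of 32 (15.6%), against 20.2% of all genes. A match is a description of letters and not a binding site. The 250 bases before the start are printed for 5 genes whose values are given below, because they span the range from 3 matches to 0. Capitals mark the E2F-type words on either strand. Mcm6 (chr1:128359706-128359955, minus strand) has 3, of which a pair overlap; Pola1 (chrX:93632156-93632405, minus strand) and Rpa1 (chr11:75348384-75348633, minus strand) have 1 each; Prim1 (chr10:128014965-128015214, plus strand) and Tk1 (chr11:117826015-117826264, minus strand) have 0.
Mcm6: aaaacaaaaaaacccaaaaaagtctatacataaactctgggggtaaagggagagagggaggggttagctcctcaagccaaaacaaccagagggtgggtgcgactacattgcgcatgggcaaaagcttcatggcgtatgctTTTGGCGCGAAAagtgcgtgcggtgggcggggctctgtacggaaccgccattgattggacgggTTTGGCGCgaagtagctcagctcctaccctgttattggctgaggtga
Pola1: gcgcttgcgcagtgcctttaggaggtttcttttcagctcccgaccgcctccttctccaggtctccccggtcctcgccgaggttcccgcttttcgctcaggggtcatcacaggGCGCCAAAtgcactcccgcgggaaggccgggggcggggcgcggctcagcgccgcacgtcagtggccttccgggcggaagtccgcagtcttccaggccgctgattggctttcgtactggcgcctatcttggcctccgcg
Rpa1: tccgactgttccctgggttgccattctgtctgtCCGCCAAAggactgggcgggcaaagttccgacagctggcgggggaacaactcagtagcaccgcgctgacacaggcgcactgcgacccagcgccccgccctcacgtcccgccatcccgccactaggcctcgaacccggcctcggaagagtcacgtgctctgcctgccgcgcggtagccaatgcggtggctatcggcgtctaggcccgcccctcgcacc
Prim1: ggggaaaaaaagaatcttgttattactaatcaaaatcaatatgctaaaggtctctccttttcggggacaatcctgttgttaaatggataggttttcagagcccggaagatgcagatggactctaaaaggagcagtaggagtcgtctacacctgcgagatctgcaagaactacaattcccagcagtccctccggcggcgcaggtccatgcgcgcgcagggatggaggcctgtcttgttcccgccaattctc
Tk1: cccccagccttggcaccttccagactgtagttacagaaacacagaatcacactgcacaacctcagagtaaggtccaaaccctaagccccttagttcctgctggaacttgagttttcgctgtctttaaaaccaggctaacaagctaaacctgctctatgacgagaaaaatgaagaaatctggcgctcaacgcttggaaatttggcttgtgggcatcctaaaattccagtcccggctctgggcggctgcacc

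The calls described below were set beside these words as a description, and no difference between the counts was tested. Of the 10 genes with a window that rose in the knockout, 3 held an E2F-type word, as did 10 of the 20 that were not called. Of the 12 with a window that fell with GSH, 4 held one, as did 10 of the 19 that were not called.

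In the knockout, 13 of the 39 genes tested were higher than in wild type and 1 was lower. They were Cdt1, Gmnn, Mcm6, Mcm10, Cdc45, Gins1, Pcna, Rpa2, Pola1, Prim1, Prim2, Tk1 and E2f1 on the higher side and Rpa1 on the lower. Prim2 is counted by its brightest probe set only, since its next one was lower in the knockout. With GSH, 18 of the 39 were lower than in the knockout and 0 were higher. Those that fell were Orc6, Gmnn, Mcm5, Mcm7, Gins1, Gins2, Rfc4, Rfc5, Rpa1, Pola1, Pold2, Pole, Prim1, Prim2, Rrm1, Rrm2, Tk1 and Ccne2. Against wild type, the GSH-supplemented cells had 4 genes higher (Cdt1, Mcm10, Pcna and Rpa2) and 14 lower (Orc6, Mcm4, Mcm5, Mcm7, Gins2, Rfc4, Rfc5, Rpa1, Pold2, Pole, Prim1, Rrm1, Rrm2 and Tk1). The comparisons share arrays, so their values are set side by side and no overlap between them is counted.

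A gene was called where limma's Benjamini-Hochberg adjusted p over all 22519 probe sets tested was under 0.05. Of those probe sets, 14.6% were called higher and 14.6% lower in the knockout than in wild type, against 33.3% and 2.56% of the replication genes. With GSH against the knockout, 18.4% of all probe sets were higher and 17.0% lower, against 0% and 46.2% of the replication genes. With GSH against wild type, 22.5% were higher and 22.3% lower, against 10.3% and 35.9%. The 0 higher with GSH against the knockout by limma stayed 0 at an unadjusted p under 0.05, where 24 were lower. It was 1 where the next brightest probe set was read in place of the brightest (Rfc3). The median log2 difference of the 39 genes was 0.10 in the knockout, -0.26 with GSH against the knockout and -0.11 with GSH against wild type, and that of all probe sets tested was 0.00, 0.04 and 0.02. Single genes ranged from -0.29 to 0.72 in the knockout and from -0.84 to 0.20 with GSH against the knockout.

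**Figure D1:**
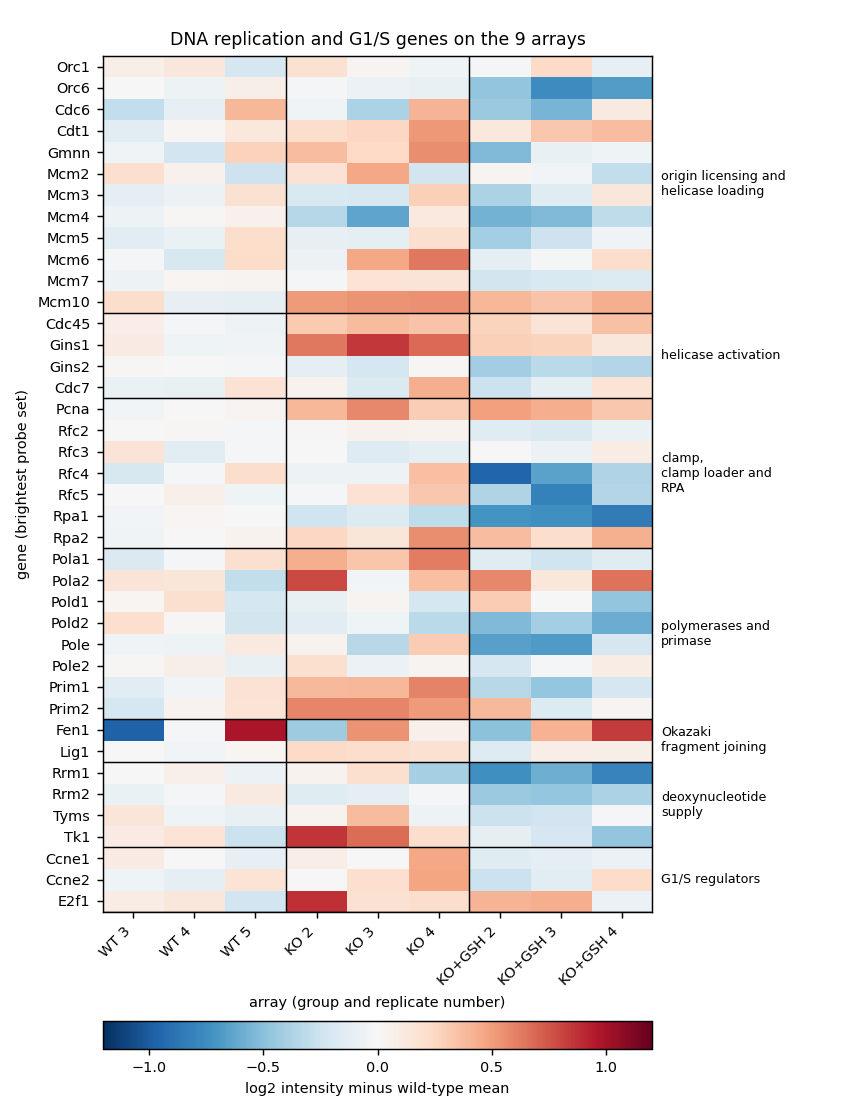
Log2 intensity of the 40 genes (rows, grouped by role) on the 9 arrays (columns), minus the gene's mean over the 3 wild-type arrays; red is above and blue below that mean. The GSH-supplemented columns are mostly blue, with Pcna, Mcm10 and Cdt1 among the red rows.

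The pattern held within each set when every array was summarised by the median of the 39 genes, each taken relative to its mean over the 9 arrays. In set 2 that median was -0.05 and -0.01 in wild type, 0.09 and 0.14 in the knockout and -0.23 and -0.15 with GSH, on the log2 scale. In set 3 it was 0.06, 0.18 and -0.09. The knockout arrays were the highest and the GSH arrays the lowest of each set, while the median of all probe sets lay between -0.04 and 0.05 on every array. The part that the marker levels given above play in these differences was not tested.

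The count in the knockout changed with how the set was treated, as did the share of all probe sets called in either direction, which was 29.1% with the term for the set, 12.3% without it and 21.3% with set 2 alone. Of the replication genes, 4 (Mcm10, Gins1, Pcna and Prim1) were called higher without the term for the set, 7 with set 2 arrays alone, and 8 without wild-type replicate 4 or without knockout replicate 4. Rpa1 lost its call without the term. For the fall with GSH, 12 of the 18 kept their call without the term for the set and 14 with set 2 arrays alone, while the share of all probe sets called went from 35.4% to 20.3% and 27.7%. Against wild type, the 4 higher with GSH became 2 without wild-type replicate 3, without wild-type replicate 5 or without the term for the set, and the 14 lower became 8 without that term.

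**Figure D2:**
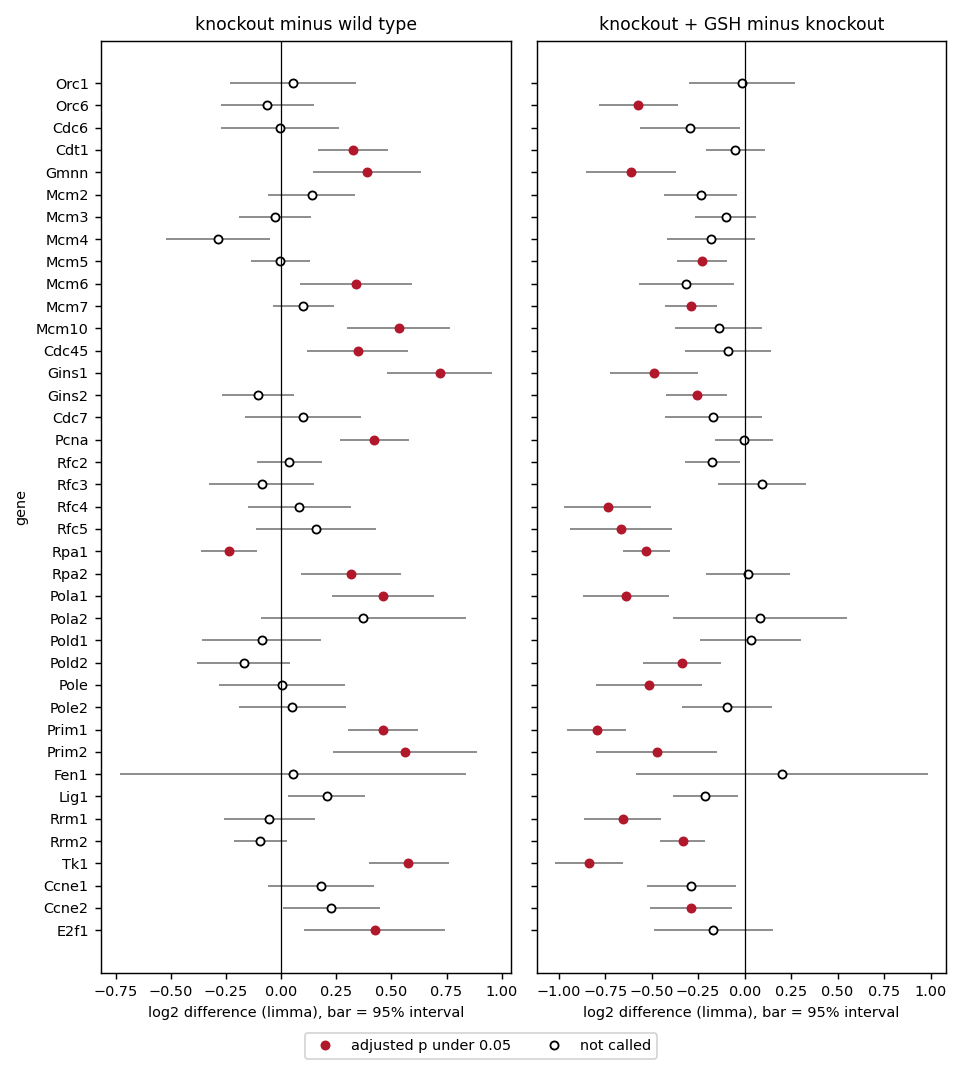
Log2 difference (x axis) of each of the 39 genes tested (rows), knockout minus wild type at left and knockout with GSH minus knockout at right, with 95% confidence intervals from limma; filled points have an adjusted p under 0.05. At left 13 filled points lie above 0 and 1 below; at right all 18 lie below 0.

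Values on single arrays below are intensities in arbitrary units on the linear scale, in order of replicate number, and differences are limma's log2 differences ± SE. Among the 12 licensing genes, 4 rose in the knockout (Cdt1, Gmnn, Mcm6 and Mcm10) and 4 fell with GSH (Orc6, Gmnn, Mcm5 and Mcm7). MCM10 links the helicase to the start of synthesis, and its gene had the smallest p of the class in the knockout. Mcm10 read 565.0, 454.8 and 452.6 in wild type, 694.0, 709.7 and 713.7 in the knockout, and 644.0, 620.2 and 658.6 with GSH. Wild type was low on all its arrays, and the 3 groups did not overlap. The difference between knockout and wild type was 0.53 ± 0.11 on the log2 scale (SE, adjusted p = 0.00306), or 1.45-fold, and was 0.47 in set 2 and 0.66 in set 3. With GSH it stayed above wild type (0.39 ± 0.11, adjusted p = 0.0104), and against the knockout it did not pass (-0.14 ± 0.11, adjusted p = 0.341). The call with GSH against wild type was kept in 6 of 9 fits that left out 1 array. A replicate block in place of the set lost it (adjusted p = 0.117).

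Orc6 encodes the smallest subunit of the origin recognition complex. It read 840.7, 812.1 and 885.7 in wild type, 829.7, 805.8 and 794.0 in the knockout, and 609.5, 500.8 and 530.0 with GSH. Wild type and knockout overlapped, and all 3 GSH arrays were below both. The fall with GSH against the knockout was 0.57 ± 0.10 (adjusted p = 0.000659), with differences of -0.57 in set 2 and -0.58 in set 3.

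CDT1 loads the MCM ring, and geminin, encoded by Gmnn, is its inhibitor. Cdt1 read 2160, 2386 and 2579 in wild type, 2740, 2811 and 3400 in the knockout, and 2590, 2959 and 3071 with GSH. All knockout and all GSH arrays lay above wild type. It rose by 0.33 ± 0.07 in the knockout (adjusted p = 0.0059) and by 0.28 ± 0.07 with GSH against wild type (adjusted p = 0.00918), the opposite direction to the 4 licensing genes called lower in that comparison. Between the knockout groups Cdt1 was at -0.05 ± 0.07 (adjusted p = 0.625) and Gmnn fell by 0.61 ± 0.11 (adjusted p = 0.00113). Gmnn was 1095 ± 197 in wild type, 1425 ± 161 in the knockout and 938 ± 161 with GSH, and its rise in the knockout was 0.39 ± 0.11 (adjusted p = 0.0215) with overlapping arrays.

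Calls among the 6 subunits of the MCM ring were few. In the knockout, Mcm6 was called higher (0.34 ± 0.12, adjusted p = 0.0472), while Mcm4 was at -0.29 ± 0.11 (adjusted p = 0.0686) and Mcm2, Mcm3, Mcm5 and Mcm7 lay between -0.03 and 0.14 without passing. Mcm6 lost its call in 8 of the 9 fits that left out 1 array. A second Mcm4 probe set (1416214_at) was at 0.002 in the knockout (adjusted p = 0.986). Between the knockout groups all 6 differences were below 0, from -0.10 for Mcm3 to -0.31 for Mcm6, and those of Mcm5 and Mcm7 passed. Against wild type, the call of Mcm7 as lower with GSH (adjusted p = 0.0304) was kept in 3 of 9 fits that left out 1 array. Orc1 and Cdc6, the other loading factors, were not called in any of the 3 comparisons.

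Of the 4 genes of helicase activation, Gins1 and Cdc45 rose in the knockout and Gins1 and Gins2 fell with GSH, while the kinase gene Cdc7 was not called. The call of Cdc45 in the knockout (0.35 ± 0.10, adjusted p = 0.0278) was kept in 4 of 9 fits that left out 1 array and lost without the term for the set (adjusted p = 0.0866). Gins1, a subunit of the GINS complex, read 368.1, 331.8 and 333.3 in wild type, 535.0, 617.4 and 550.6 in the knockout, and 420.5, 414.8 and 377.8 with GSH. The groups did not overlap, with the knockout highest and the GSH arrays between. Its rise in the knockout, 0.72 ± 0.11 (adjusted p = 0.00046), or 1.65-fold, was the largest of the 39 genes and was 0.72 in each set. With GSH it fell by 0.49 ± 0.11 against the knockout (adjusted p = 0.00423) and did not pass against wild type (0.23 ± 0.11, adjusted p = 0.105). Its partner Gins2 was at -0.11 ± 0.07 in the knockout (adjusted p = 0.324) and fell with GSH by 0.26 ± 0.07 against the knockout (adjusted p = 0.0175) and by 0.36 ± 0.07 against wild type (adjusted p = 0.0019). The call against the knockout was lost with a replicate block within the knockout groups (adjusted p = 0.0555) and without the term for the set (adjusted p = 0.0781). A second Gins2 probe set (1452881_at) was at 0.37 in the knockout (adjusted p = 0.143), with all knockout arrays above wild type. With GSH that probe set fell by 0.605 against the knockout (adjusted p = 0.0185) and did not pass against wild type (-0.24, adjusted p = 0.296).

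**Figure D3:**
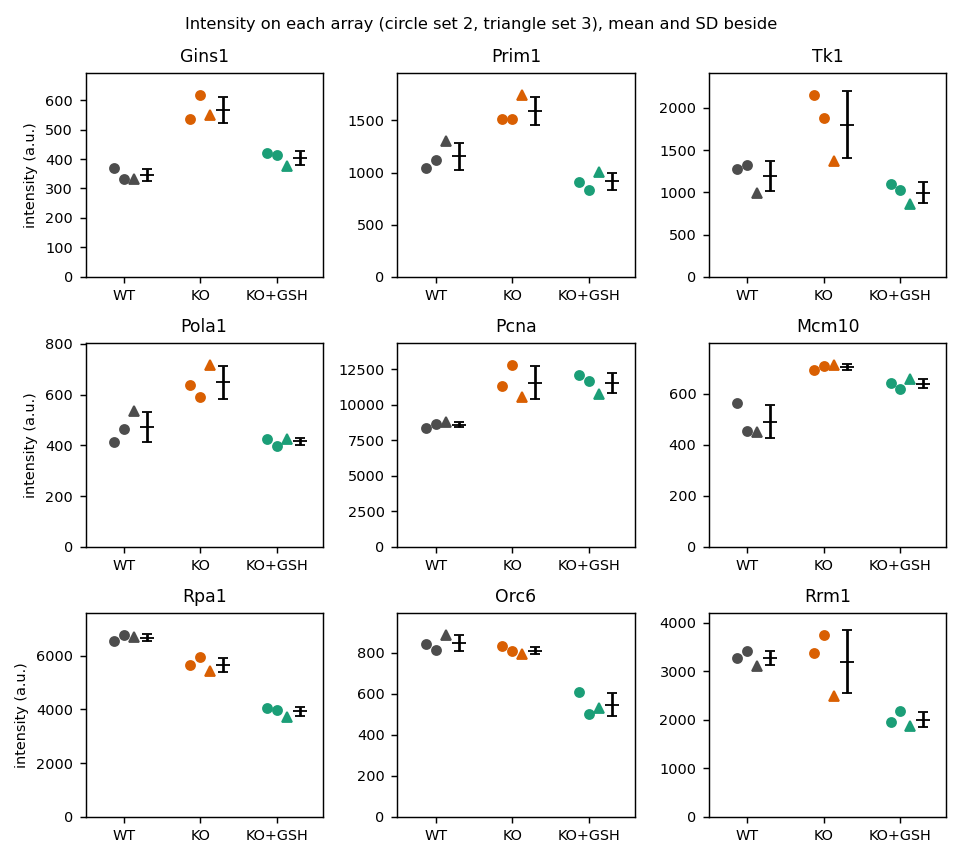
Intensity (y axis, arbitrary units, from 0) of 9 genes on each array by group, with circles for set 2, triangles for set 3, and the mean with SD beside each group. Gins1, Prim1, Tk1 and Pola1 are highest on the knockout arrays, Pcna and Mcm10 are lowest in wild type, and Rpa1, Orc6 and Rrm1 are lowest with GSH.

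The clamp, its loader and RPA held genes that moved in opposite directions. Pcna and Rpa2 rose in the knockout and Rpa1 fell, while Rfc4, Rfc5 and Rpa1 fell with GSH. Pcna read 8383, 8630 and 8765 in wild type, 11324, 12790 and 10535 in the knockout, and 12122, 11634 and 10736 with GSH. Both knockout groups lay wholly above wild type and overlapped each other. The rise was 0.42 ± 0.07 in the knockout (adjusted p = 0.00101) and 0.42 ± 0.07 with GSH against wild type (adjusted p = 0.000544), and the difference between the knockout groups was -0.004 ± 0.07, with a 95% interval from -0.16 to 0.15.

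RPA is a trimer in which RPA1 is the large DNA-binding subunit and RPA2 the middle one. Rpa1 read 6532, 6770 and 6712 in wild type, 5638, 5936 and 5412 in the knockout, and 4047, 3994 and 3733 with GSH. The groups did not overlap and stepped down in that order. Rpa1 fell by 0.24 ± 0.06 in the knockout (adjusted p = 0.00966) and by a further 0.53 ± 0.06 with GSH (adjusted p = 2.41e-05), which made a fall of 0.77 ± 0.06 against wild type (adjusted p = 8.15e-07). Rpa2 went the other way: 459.8, 471.1 and 488.2 in wild type, 561.3, 522.3 and 694.6 in the knockout, and 611.1, 546.7 and 634.4 with GSH. Its rise was 0.32 ± 0.10 in the knockout (adjusted p = 0.0395), a call kept in 4 of 9 fits that left out 1 array, and 0.33 ± 0.10 with GSH against wild type (adjusted p = 0.0205).

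The clamp loader genes Rfc4 and Rfc5 were close to wild type in the knockout (0.08 ± 0.11 and 0.16 ± 0.12, adjusted p = 0.617 and 0.387). After GSH they fell by 0.74 ± 0.11 (adjusted p = 0.00022) and 0.67 ± 0.12 (adjusted p = 0.00138). Rfc2 and Rfc3, of the same complex, were not called in any comparison.

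Of the 8 polymerase and primase genes, Pola1 and Prim1 rose in the knockout, and both fell with GSH, as did Pold2 and Pole. The brightest Prim2 probe set was called in the same directions, but the next one was not, as described below. Pola1, Prim1 and Prim2 encode the catalytic subunit of polymerase alpha and both subunits of its primase. Prim1 read 1047, 1124 and 1300 in wild type, 1510, 1516 and 1744 in the knockout, and 914.0, 833.9 and 1002 with GSH. The groups did not overlap, with the knockout highest and GSH lowest. The rise in the knockout was 0.46 ± 0.07 (adjusted p = 0.000597), and the fall with GSH was 0.80 ± 0.07 (adjusted p = 5.24e-06), or 1.74-fold, with differences of -0.79 in set 2 and -0.80 in set 3. Against wild type Prim1 was lower by 0.33 ± 0.07 with GSH (adjusted p = 0.00277). That last call was kept in 9 of 9 fits that left out 1 array. It was lost without the term for the set (adjusted p = 0.0666) and with the replicate block (adjusted p = 0.155).

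Pola1, chosen for the plot after its values were seen, read 415.0, 465.8 and 534.5 in wild type, 636.7, 591.2 and 716.9 in the knockout, and 424.6, 397.6 and 424.2 with GSH. All knockout arrays were above the other groups, which overlapped. It rose by 0.46 ± 0.10 (adjusted p = 0.00659) and fell with GSH by 0.64 ± 0.10 (adjusted p = 0.000559). Pola1 lies on the X chromosome, and the part of the sex difference described above in its rise was not tested. Pola2, Pold1 and Pole2, accessory or catalytic polymerase genes, were not called in any comparison, and Pola2 scattered from 369 to 784 over the 9 arrays.

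Of the Okazaki fragment genes, neither the flap nuclease gene Fen1 nor the ligase gene Lig1 was called. Lig1 read 1203, 1169 and 1219 in wild type, 1406, 1383 and 1355 in the knockout, and 1072, 1262 and 1256 with GSH. The knockout arrays were all above the others, but the differences of 0.21 ± 0.08 from wild type (adjusted p = 0.0734) and -0.21 ± 0.08 with GSH against the knockout (adjusted p = 0.0592) did not pass.

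Among the genes of deoxynucleotide supply, Tk1 rose in the knockout, and Tk1, Rrm1 and Rrm2 all fell with GSH against both other groups. Thymidine kinase, encoded by Tk1, salvages thymidine, and Rrm1 and Rrm2 encode the subunits of ribonucleotide reductase. Tk1 read 1271, 1326 and 989.0 in wild type, 2151, 1881 and 1368 in the knockout, and 1104, 1028 and 856.6 with GSH. The set 3 array was the lowest of each group, and within each set the knockout was highest. The rise was 0.58 ± 0.08 (adjusted p = 0.000327; 0.63 in set 2 and 0.47 in set 3). That call was kept in 9 of 9 fits that left out 1 array. It was lost without the term for the set (adjusted p = 0.0735) and with the replicate block (adjusted p = 0.143). The fall with GSH against the knockout, 0.84 ± 0.08 (adjusted p = 1.11e-05), was the largest of the 39 genes at 1.79-fold. Against wild type Tk1 was lower with GSH by 0.26 ± 0.08 (adjusted p = 0.0245), with overlapping arrays. This smaller fall was kept in 6 of 9 fits that left out 1 array and lost without the term for the set (adjusted p = 0.347).

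Rrm1, also picked for the plot after its values were seen, read 3285, 3425 and 3121 in wild type, 3372, 3752 and 2483 in the knockout, and 1963, 2178 and 1876 with GSH. Wild type and knockout overlapped and the GSH arrays were below both. Its fall with GSH was 0.66 ± 0.09 against the knockout (adjusted p = 0.000197) and 0.71 ± 0.09 against wild type (adjusted p = 7.98e-05). Tyms, which encodes thymidylate synthase, was the 1 gene of the 40 not tested: its 4 probe sets all lay below the signal filter, and the brightest read 108.5 ± 9.84, 118.9 ± 19.7 and 96.4 ± 8.68 in the 3 groups.

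Of the G1/S regulators, E2f1 rose in the knockout and Ccne2 fell with GSH, both close to the threshold, and Ccne1, the other cyclin E gene, was not called. E2f1 read 663.1, 685.8 and 531.7 in wild type, 1147, 707.4 and 719.9 in the knockout, and 824.6, 843.2 and 592.1 with GSH. Knockout replicate 2 stood far above its group. The rise was 0.42 ± 0.15 (adjusted p = 0.0493) and was kept in 1 of 9 fits that left out 1 array. Ccne2 read 508.9, 487.4 and 589.6 in wild type, 529.0, 607.0 and 729.7 in the knockout, and 439.5, 478.7 and 612.4 with GSH. The groups overlapped, and its fall of 0.29 ± 0.10 (adjusted p = 0.0436) was likewise kept in 1 of 9 such fits and lost with a replicate block within the knockout groups (adjusted p = 0.082).

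Prim2 and Fen1 have further probe sets that gave other answers. The brightest Prim2 probe set (1418036_at) read 383.7, 457.4 and 494.9 in wild type, 663.3, 666.6 and 631.6 in the knockout, and 580.1, 396.3 and 453.4 with GSH, a rise of 0.56 ± 0.15 in the knockout (adjusted p = 0.0146). The next Prim2 probe set (1418035_a_at) read 588.0, 923.6 and 1183 in wild type, 223.0, 265.3 and 258.9 in the knockout, and 224.0, 224.7 and 159.3 with GSH, a fall of 1.80 ± 0.23 (adjusted p = 0.000154), or 3.47-fold. Both differences passed and they point in opposite directions, so no direction is given for Prim2 as a gene. The fall of the brightest probe set with GSH against the knockout, 0.47 ± 0.15 (adjusted p = 0.0266), was kept in 4 of 9 fits that left out 1 array, and the next probe set was at -0.31 (adjusted p = 0.333).

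The brightest Fen1 probe set (1436454_x_at) scattered within every group, from 752.1 to 2902 in wild type, 1091 to 2129 in the knockout and 1044 to 2628 with GSH. Its name ends in x_at, the maker's mark for probes that can match other transcripts. The brightest probe sets of Mcm4, Mcm5, Rrm2 and Ccne1 carry the same mark. The next Fen1 probe set (1421731_a_at) was tight, at 1157 ± 43.7 in wild type, 1405 ± 67.6 in the knockout and 1287 ± 61.3 with GSH, and rose in the knockout by 0.28 ± 0.07 (adjusted p = 0.0152). A second probe set of Mcm2 (1434079_s_at) fell with GSH by 0.72 (adjusted p = 0.000462) where the brightest did not pass, and a second one of Rfc3 (1423700_at) rose by 0.34 (adjusted p = 0.0472). For Mcm3, 1426652_at fell with GSH by 0.355 against the knockout (adjusted p = 0.0109) and by 0.316 against wild type (adjusted p = 0.0162). Its other tested probe sets were not called. For Cdc7, 1426021_a_at was higher by 0.565 with GSH against wild type (adjusted p = 0.0433). Further probe sets of Cdt1 and Rpa2 were also called higher in the knockout, and those of Rpa1, Rrm1, Rrm2, Prim1 and Rfc4 were also called lower with GSH. The next probe sets of Mcm6 (0.10, adjusted p = 0.512), E2f1 (0.30, adjusted p = 0.198), Prim1 (0.39, adjusted p = 0.0688) and Rpa1 (-0.25, adjusted p = 0.0807) did not pass in the knockout. With GSH against wild type, those of Mcm4 (-0.16, adjusted p = 0.109) and Mcm5 (-0.14, adjusted p = 0.116) did not pass, where the brightest ones were called lower.

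**Figure D4:**
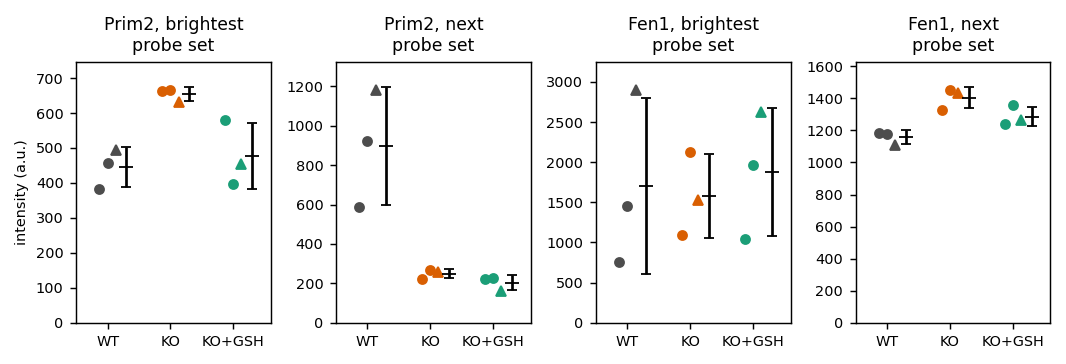
Intensity (y axis, arbitrary units, from 0) of the brightest and next probe sets of Prim2 and Fen1 on each array by group, with circles for set 2, triangles for set 3, and the mean with SD beside. The Prim2 probe sets move in opposite directions between wild type and knockout, and the brightest Fen1 probe set ranges from 752.1 to 2902 within wild type.

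The other replication factors were 44 genes. They include further subunits of the origin recognition, GINS, clamp loader, RPA and polymerase complexes, and genes of chromatin assembly, fork protection and nucleotide supply. In the knockout 12 of the 44 were higher and 2 lower (27.3% and 4.55%, beside 14.6% each over all probe sets). With GSH against the knockout 5 were higher and 20 lower (11.4% and 45.5%, beside 18.4% and 17.0%). Against wild type, 6 were higher and 10 lower with GSH (13.6% and 22.7%, beside 22.5% and 22.3%), a lower share near that of all probe sets. Asf1b, a histone chaperone, rose by 0.60 ± 0.09 in the knockout (adjusted p = 0.000375), and Brca1, a repair gene, by 0.63 ± 0.10 (adjusted p = 0.000526). Slbp, which binds histone messages, rose by 0.37 ± 0.06 (adjusted p = 0.00137). Dck, the deoxycytidine kinase gene of nucleotide salvage, was unlike Tk1: it rose by 0.43 ± 0.09 in the knockout (adjusted p = 0.00319) and by 0.25 ± 0.09 more with GSH (adjusted p = 0.0403). The smallest p-values with GSH against the knockout belonged to the fork protection gene Tipin (-0.78 ± 0.08, adjusted p = 1.57e-05), Top2a, Dut and Topbp1, all lower. Dbf4, which activates CDC7 kinase, was lower by 0.56 ± 0.08 with GSH against wild type (adjusted p = 0.00021).

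The 26 genes of G1 cyclins, CDKs, E2F and pocket proteins had 4 higher and 5 lower in the knockout (15.4% and 19.2%), near the 14.6% each over all probe sets. Ccnd2 (cyclin D2) fell by 0.66 ± 0.06 (adjusted p = 5.08e-06) and its partner kinase Cdk6 by 0.62 ± 0.06 (adjusted p = 2.72e-05). Rbl1 (p107), a pocket protein, rose by 0.65 ± 0.08 (adjusted p = 0.000141) and Ccna2 (cyclin A2) by 0.36 ± 0.07 (adjusted p = 0.00166). With GSH against the knockout 3 rose and 9 fell (11.5% and 34.6%), led by Ccna2 (-0.94 ± 0.07, adjusted p = 6.13e-07), Cks1b, Ccnh and E2f7. With GSH against wild type 4 were higher and 14 lower (15.4% and 53.8%).

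Of the CDK inhibitors, Cdkn2b (p15) fell 2.68-fold in the knockout, from 2343 ± 75.1 to 877 ± 56.1 (adjusted p = 8.31e-07), and rose with GSH to 1183 ± 151 (adjusted p = 0.0045). Cdkn2c (p18) and Cdkn2d (p19) went the other way, up by 0.72 ± 0.08 and 0.68 ± 0.08 in the knockout (adjusted p = 6.36e-05 and 4.73e-05) and down by 0.87 ± 0.08 and 0.73 ± 0.08 with GSH (adjusted p = 8.55e-06 and 1.51e-05). Cdkn1a (p21) was at 0.02 ± 0.07 in the knockout (adjusted p = 0.849) and Cdkn1b (p27) at 0.01 ± 0.09 (adjusted p = 0.934), and both fell with GSH, by 0.20 ± 0.07 and 0.42 ± 0.09 (adjusted p = 0.0351 and 0.00274).

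The G2/M and mitosis genes, which act after replication, had larger shares called than the replication genes: 22 of 39 (56.4%) higher in the knockout, 33 of 39 (84.6%) lower with GSH against the knockout, and 24 lower and 3 higher with GSH against wild type. Their median log2 difference was 0.35 in the knockout, against 0.10 for the replication genes, and the difference between the lists was not tested. Cenpf, a kinetochore gene, rose by 1.56 ± 0.14 in the knockout (adjusted p = 6.94e-06), and Pttg1 (securin) by 0.77 ± 0.07 (adjusted p = 1.44e-05). With GSH, Cdc20, Ube2c, Hmmr and Anln fell by 1.14 to 1.30. Mki67, the gene of the proliferation marker Ki-67, read 1267 ± 111 in wild type, 3357 ± 326 in the knockout and 3218 ± 124 with GSH, a rise of 1.41 ± 0.07 in the knockout (adjusted p = 8.5e-08) with no call between the knockout groups (-0.06 ± 0.07, adjusted p = 0.565).

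**Figure D5:**
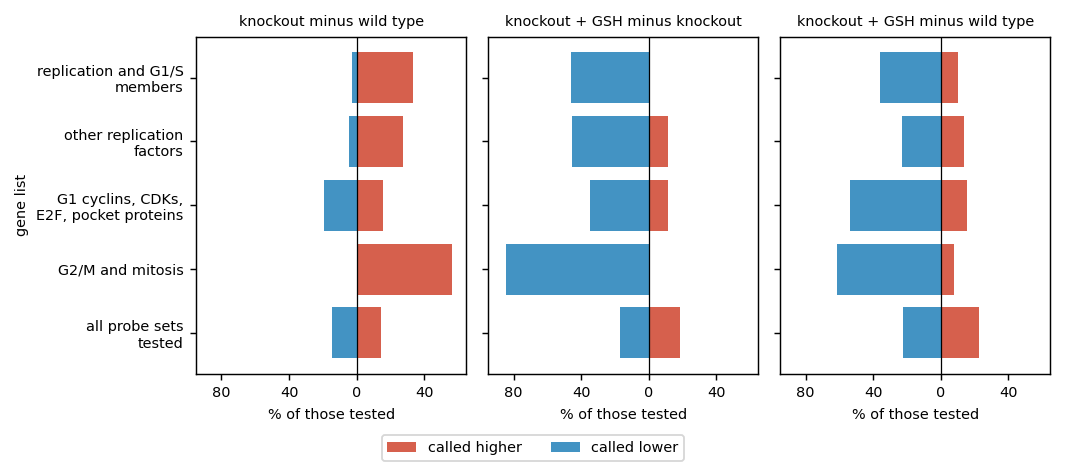
Share of genes called higher (red, to the right of 0) and lower (blue, to the left) in each list and over all probe sets tested, for the 3 comparisons. The replication genes reach 33.3% higher in the knockout and 46.2% lower with GSH, and the G2/M list 56.4% and 84.6%.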

How the data were processed

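The authors deposited 1 table of probe set intensity on a linear scale, with 1 column per array. The 2% trimmed mean was 500 on each array, which shows that the values had been scaled, and the summarising software is not named in the labels. Of 45101 probe sets, 64 controls were dropped. The log2 of each intensity was used (2 zeros were raised to 0.1), and probe sets below the median level (a geometric mean of 115.9) were dropped, which kept 22519. Group and set were the terms of 1 limma model (version 3.58.1, R 4.3.3) over the 9 arrays, with moderation along an intensity trend. It had 5 residual degrees of freedom and 6.08 prior ones. P-values were Benjamini-Hochberg adjusted over all kept probe sets in each of 3 comparisons. The number of arrays, 3 a group, limits the precision. The fit was tested on simulated data.

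The platform annotation in GEO gave 1 symbol to 34945 probe sets, more than 1 to 932 and none to 9160, and 34741 matched the RefSeq gene table with 0 symbols changed. The 40 genes had 87 probe sets with 1 symbol. The control level is the 95th percentile of 27 Bacillus control probe sets on each array (43.4 to 82.9). The genes and lists were chosen with earlier results of these data known. Values on each array are printed, in each role class, for the gene with the smallest p in the knockout and with GSH against the knockout, for called genes that oppose their class and for probe sets that disagree; the other lists give up to 4 genes of smallest p. Other marker lists were mesothelial (5 lower in the knockout of 6 tested), endothelial (4 of 10), type I (10 of 12), airway (1 of 3) and type II (4 higher and 2 lower of 11). Over all probe sets 14.6% were called each way there. With GSH against the knockout, the mesothelial list had 1 higher and 5 lower and the endothelial list 1 and 3. The type I list had 6 and 0, airway 2 and 0 and type II 6 and 0, beside 18.4% and 17.0% over all probe sets. Of 12 lymphocyte genes, 3 did not exceed the control level on any array (Cd3d, Cd3g and Nkg7).

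Within groups, arrays correlated at 0.9505 to 0.9904 and none was a copy of another. The knockout groups share replicate numbers 2, 3 and 4 in the labels. Deviations of same-numbered arrays from the group means correlated at 0.32, 0.29 and 0.67. The crossed pairs of set 2 gave 0.24 and 0.39, so number and set are not told apart and the values do not show a pairing by number. Wild type shares numbers 3 and 4 with the knockout, at 0.42 and -0.49. Wild-type replicate 5 and knockout replicate 4, of the same set, gave 0.7. The main model paired no arrays, and a block by number was run only as an alternative. Alternatives were quantile normalisation, other filters and offset, no term for the set, set 2 alone, a replicate block, fold rules, the next probe set and leaving out each array.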

Additional observations from a re-analysis of the deposited data

How the results depend on the processing

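With GSH against the knockout, the count of replication genes that fell (18) was 17 after quantile normalisation, 17 without the signal filter, 21 with a 70th percentile filter, 18 with an offset of 50, 12 without the term for the set, 17 with only the 2 groups compared, 16 with the next probe set and 15 to 20 when 1 array was left out. It was 4 of 39 under a fold rule and 7 of 39 where at least 1.5-fold was asked of called genes. The fold rule asked for at least 1.5-fold in at least 6 of 9 pairs of arrays. It also asked for a mean fold, less its standard error, of at least 1.5 and an unadjusted limma p under 0.05. Of all probe sets, 14.5% and 18.4% passed these rules in either direction. The count higher was 1 with the next probe set (Rfc3). A replicate block in place of the set, with all 9 arrays, called 13 lower; Mcm5, Gins2, Pold2, Pole and Ccne2 lost their call. The replicate block within the 2 knockout groups alone, an alternative chosen after seeing the data, called 17 lower: 16 of the 18 kept their call, and Gins2 and Ccne2 lost it.

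In the knockout against wild type, the 13 higher became 4 without the term for the set, 7 with the replicate block, 7 with set 2 alone, 6 with the next probe set, 1 under the fold rule and 1 at 1.5-fold, and 8 to 12 with 1 array left out. Of all probe sets, 9.53% passed the fold rule and 12.8% the 1.5-fold limit there, in either direction. The 1 lower (Rpa1) became 0 without the term for the set, with the block and under both fold rules. That count was 1 to 2 with 1 array left out (2 without knockout replicate 4). Rpa1 itself kept its call in 8 of 9 fits that left out 1 array. It lost the call without wild-type replicate 5 (adjusted p = 0.0579) and with set 2 alone. The median was 0.17 with the block. In the comparisons with wild type, that block joined wild-type replicate 4 of set 2 to replicate 4 of the knockout groups, which is in set 3. Wild-type replicate 5 was alone in its block and added nothing to these differences. The next probe set reversed Prim2, at -1.80 (adjusted p = 0.000154). With GSH against wild type, the 4 higher became 2 without the term for the set, 2 with set 2 alone, 0 under both fold rules and 2 to 5 with 1 array left out (2 without wild-type replicate 3 or 5). The 14 lower became 8 without the term for the set, 9 with the block, 3 under the fold rule and 4 at 1.5-fold, and the median was -0.24 with the next probe set. In that comparison 19.3% of all probe sets passed the fold rule and 24.2% the 1.5-fold limit, in either direction. The cause of these shifts was not tested. In the alternative with the next probe set, genes with only 1 probe set kept it, so their main calls were counted again. Gmnn, Pcna and Tk1 were such genes in the knockout, and Orc6, Gmnn, Rfc5, Pold2, Pole, Tk1 and Ccne2 with GSH. The next probe sets of Mcm10, Cdc45, Gins1 and Pola1 lay below the signal filter and were not tested. Set 2 alone has 6 arrays. The brightest probe sets of the 40 genes exceeded the control level on every array.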
